A study of Mus musculus with 48 samples.

Results

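The genotype by fluoxetine (FLX) interaction in the mouse amygdala (AMG) is described here. It compares the response to FLX in mice with 1 functional copy of *Brd1* with the response in wild-type (WT) littermates. It was computed for each gene as the FLX minus vehicle difference in *Brd1*+/- mice minus the same difference in WT mice, so that a positive value means a higher FLX effect in *Brd1*+/- mice. All libraries of the 4 groups concerned entered the contrast (32 of the 48 in the series, 8 a group), and of 52636 deposited genes 26657 passed the filter on low values and were tested, 15955 of them protein-coding and 10650 noncoding, a class that here takes in pseudogenes and every other annotated type. Another 52 tested genes had no annotation.

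The mice were females of a strain labelled C57BL/6NTac-Brd1, aged 8 to 11 weeks. *Brd1*+/- mice carried a constitutive heterozygous targeted deletion, and WT mice were their litter mates. FLX was given subcutaneously at 5 mg/kg, and vehicle mice received saline on the same schedule. All mice went through behavioural tests of immobility and open field exploration before they were killed, and a single tissue punch of the right AMG was taken from each, so that no group was free of handling and test stress. The imipramine (IMN) libraries of both genotypes did not enter the contrast and are quoted as values only. Values are TPM, the share of a library's transcripts that belong to a gene, scaled to a fixed total and corrected for transcript length. Differences are on the log2(TPM + 0.1) scale, and a gene is said to be called, or to have a higher or lower FLX effect, where its limma *p*-value adjusted over all 26657 genes was below 0.05.

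FLX blocks the serotonin transporter, and serotonin reaches the AMG from neurons whose cell bodies lie in the brainstem. Neurons that fire strongly switch on immediate-early genes, first transcription factors of the Egr, Fos and Nr4a families and then effectors such as *Inhba*, whose product forms the ligand activin A. BRD1 is a chromatin reader that joins histone acetyltransferase complexes. 7SL RNA, the most affected noncoding RNA described below, is the RNA scaffold of the signal recognition particle, is made by RNA polymerase III and carries no poly(A) tail.

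The targeted gene was lower in *Brd1*+/- libraries with and without the drug. *Brd1* (chr15:88687034-88734233, minus strand; GRCm38, GENCODE M21) ranged from 26.5 to 41.0 TPM in WT vehicle (median 37.9), from 24.9 to 39.3 in WT FLX (median 33.1), from 21.8 to 30.6 in *Brd1*+/- vehicle (median 26.2) and from 18.0 to 27.2 in *Brd1*+/- FLX libraries (median 24.4). The genotypes therefore overlapped in range. The *Brd1*+/- minus WT difference was −0.45 ± 0.10 with vehicle (SE, limma adjusted *p* = 0.0167) and −0.49 ± 0.10 with FLX (limma adjusted *p* = 0.0194). The interaction was −0.04 ± 0.15 (limma adjusted *p* = 0.931), and its sign changed with median-ratio scaling (0.055) and quantile normalization (0.035), so that no effect of FLX on the genotype difference in *Brd1* was detected.

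In all, 455 genes (1.71%) were called, 47 with a higher FLX effect in *Brd1*+/- mice (0.176%) and the rest with a lower one (1.53%), and 4469 genes had an unadjusted limma *p* below 0.05. Protein-coding genes gave 37 of the higher calls (0.232% of the coding genes tested) and 218 of the lower calls (1.37%). Noncoding genes gave 9 higher calls (0.0845%) and 189 lower calls (1.77%). Unannotated genes gave 1 call in each direction. The median interaction of all genes tested was −0.10, and quantile normalization moved it to 0.01. The share of higher calls rose from 10.3% to 22.2% with median-ratio scaling and to 21.1% with quantile normalization, and among coding genes from 14.5% to 32.6% and 25.4%.

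Among genes with a lower effect, the group that stood apart most often was not the same one in coding and noncoding calls. For each gene the group whose mean lay farthest from the mean of the other 3 was recorded. It was WT FLX in 177 of the 218 coding genes with a lower effect (81.2%) and in 28 of the 37 with a higher effect (75.7%), against 41.9% of all coding genes tested. Among the 189 noncoding genes with a lower effect it was *Brd1*+/- vehicle in 143 (75.7%), against 27.7% of the noncoding genes tested. Among the 9 noncoding genes with a higher effect it was WT FLX in 5 and *Brd1*+/- vehicle in 1. The median FLX minus vehicle difference of the coding genes with a lower effect was 0.67 in WT and −0.40 in *Brd1*+/- mice. Over the noncoding genes with a lower effect these medians were 0.28 and −1.64, and the median *Brd1*+/- minus WT difference with vehicle was 1.68. The simple effects share libraries with the interaction and are given as values.

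**Figure D1:**
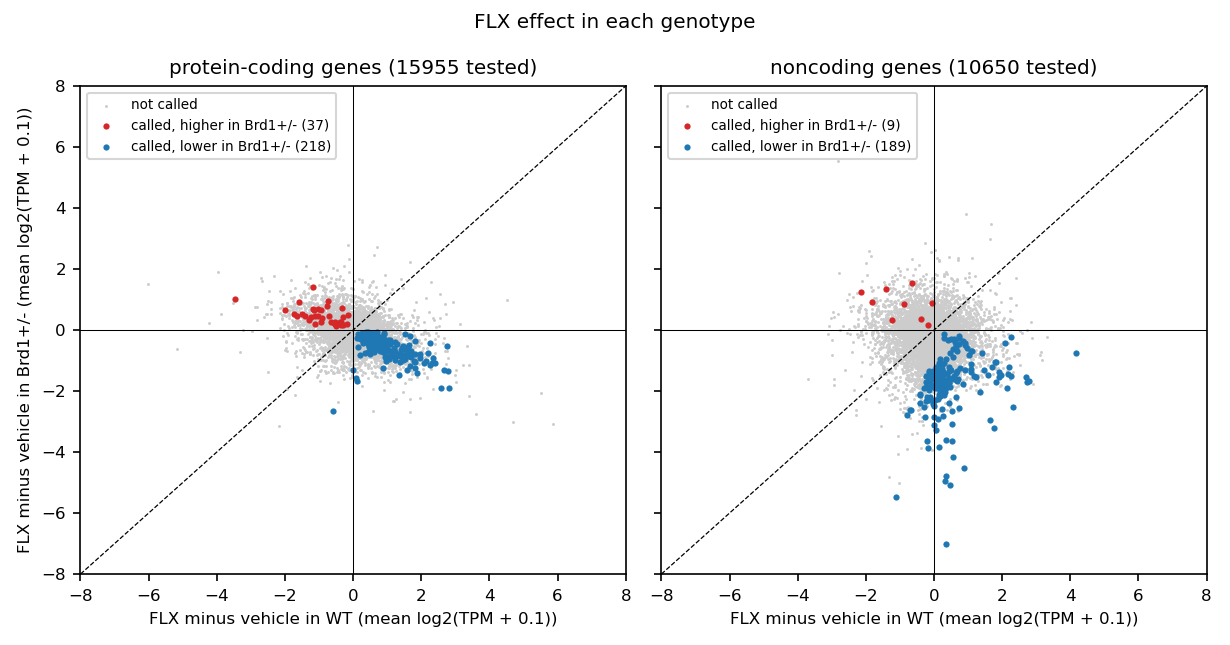
FLX minus vehicle difference in mean log2(TPM + 0.1) in WT (horizontal axis) and in *Brd1*+/- mice (vertical axis) for the 15955 protein-coding genes (left) and the 10650 noncoding genes (right); red and blue points are called genes, grey points are not called, and equal effects lie on the dashed line. Blue coding genes (218) lie mostly to the right of 0 and blue noncoding genes (189) mostly below 0 at little horizontal distance.

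**Figure D2:**
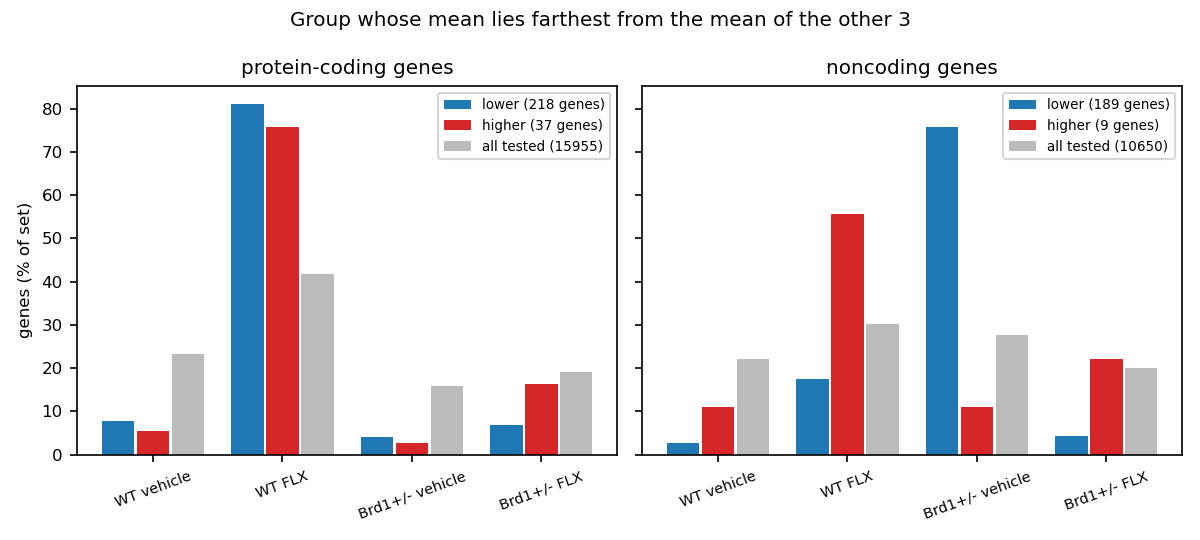
Share of genes (%) whose farthest group was each of the 4 groups, for called genes with a lower effect (blue), called genes with a higher effect (red) and all genes tested (grey). WT FLX stood out for 81.2% of the coding genes with a lower effect, and *Brd1*+/- vehicle for 75.7% of the noncoding ones.

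Marker levels of the punches also differed among the groups, and those values stand here before the genes. Of the 25 AMG neuron markers none was called, none was at 0 throughout a group, and their summed level was 1990 to 5171 TPM in WT vehicle, 776 to 2630 in WT FLX, 1555 to 4545 in *Brd1*+/- vehicle and 2470 to 4666 in *Brd1*+/- FLX libraries. By median WT FLX punches (1883 TPM) were the lowest in AMG neuron markers, and the median interaction of the list was 0.58 (4 of 25 at an unadjusted *p* below 0.05; smallest *p* for *Npy*, *Lypd1*, *Ezr* and *Zfp536*). Over all genes tested, 3002 of 15955 coding and 1460 of 10650 noncoding genes had such a *p*. These shares are the background for this and the later lists, and 4 of 25 does not exceed the coding one. In bulk tissue, fewer cells of a type and less RNA per cell cannot be told apart.

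For the hypothalamic peptides, none of which was called, the median interaction had the other sign. *Avp*, the vasopressin gene, read 737, 246, 319, 0.743, 4.93, 0.675, 43.1 and 1.74 TPM in WT FLX replicates 1 to 8, between 0 and 12.9 in WT vehicle, between 0 and 6.49 in *Brd1*+/- FLX and between 0 and 137.99 in *Brd1*+/- vehicle libraries. *Oxt*, the oxytocin gene, was listed at 0 in 4 and reached 524 TPM in another of the WT FLX libraries, and was listed at 0 in 7 of 8 *Brd1*+/- FLX libraries. The high values therefore came from a few WT FLX and *Brd1*+/- vehicle punches. In *Brd1*+/- IMN libraries *Avp* reached 1410 TPM. The interactions were −8.95 ± 2.50 (*Avp*, limma adjusted *p* = 0.0591) and −7.72 ± 2.57 (*Oxt*, limma adjusted *p* = 0.115). None of the 12 peptides tested was called (median −2.37, 4 at an unadjusted *p* below 0.05, with *Trh* and *Pmch* next in *p*), nor any of 36 hypothalamic and subpallial transcription factors (median −1.07, 10 at an unadjusted *p* below 0.05, led by *Lhx1*, *Lhx5*, *Zic1* and *Nkx2-2*).

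Oligodendrocytes make myelin. None of their 16 genes was called, but all 16 had an unadjusted *p* below 0.05 (median −2.05, with *Aspa*, *Myrf*, *Gjc3* and *Cnp* first). Their summed level had a median of 2320 TPM in WT vehicle, 6881 in WT FLX, 6672 in *Brd1*+/- vehicle and 3420 in *Brd1*+/- FLX libraries. Choroid plexus markers were not called (0 of 22, median interaction 0.28, 0 of 22 at an unadjusted limma *p* below 0.05). Their sum reached 36072 TPM in WT vehicle, 11019 in WT FLX, 13317 in *Brd1*+/- vehicle and 36177 TPM in *Brd1*+/- FLX libraries. Group medians were 119, 242, 548 and 340.3 TPM in that order. Striatal markers (0 of 20 called, median 0.30, 2 at an unadjusted limma *p* below 0.05) reached 13083 TPM in WT vehicle, 11157 in *Brd1*+/- vehicle, 12385 in *Brd1*+/- FLX and 3221 TPM in WT FLX libraries.

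**Figure D3:**
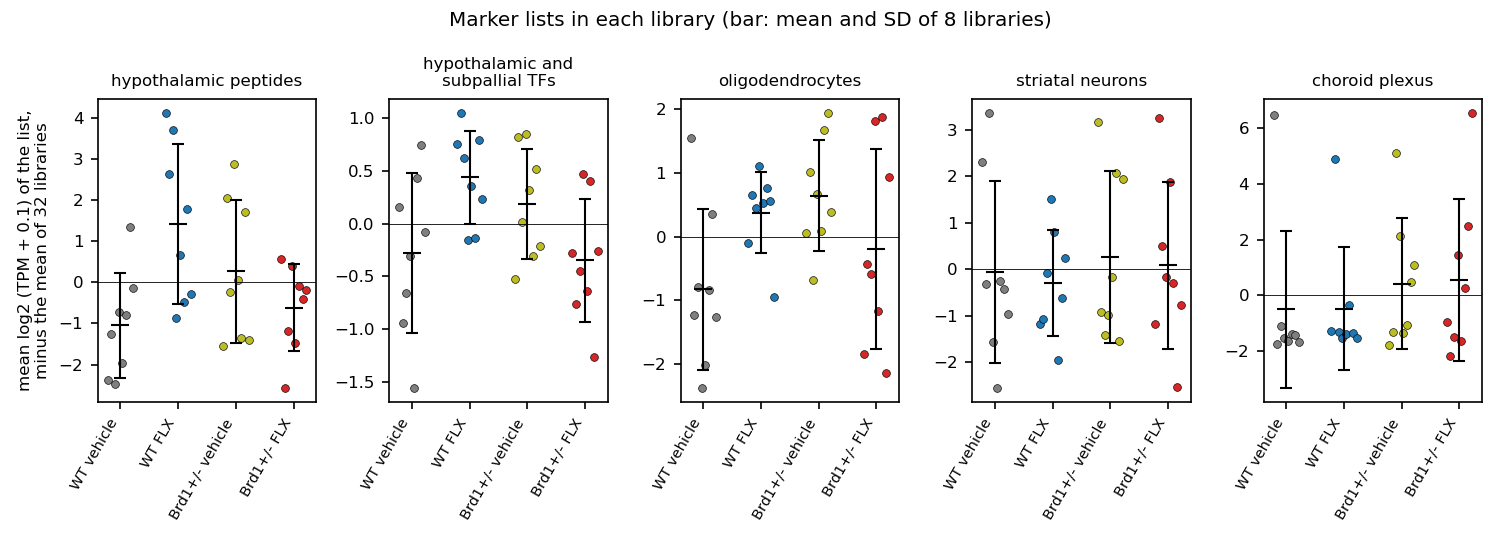
Mean log2(TPM + 0.1) of 5 marker lists in each of the 32 libraries, after subtraction of the mean over libraries; points are libraries and bars the mean and SD of 8. Hypothalamic peptides reach 4.12 in WT FLX and no more than 0.56 in *Brd1*+/- FLX libraries. Choroid plexus reaches 6.48 in WT vehicle, 4.90 in WT FLX, 5.13 in *Brd1*+/- vehicle and 6.57 in *Brd1*+/- FLX libraries.

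Some of these lists, but not the AMG neuron markers, were used as covariates in further fits. With the mean level of the hypothalamic transcription factors as a covariate, 64 genes were called, 3 of them coding and 61 noncoding, and with the striatal, oligodendrocyte and choroid plexus levels as covariates 189 were called, 64 of them coding, and the called share of noncoding genes was 1.17%. A fit with the hypothalamic peptides, added after seeing the data, called 7 coding and 67 noncoding genes. Of the 255 coding calls, 3, 43 and 4 were shared with these fits, and of the 198 noncoding calls 59, 108 and 64. The 3 coding calls kept with the hypothalamic transcription factors were *Asb13* (−0.73, limma adjusted *p* = 0.0333), *Psapl1* (−1.77, limma adjusted *p* = 0.00924) and *Gm10277* (−1.98, limma adjusted *p* = 0.0408), and the 4 kept with the peptides were these and *Acyp2* (−0.84, limma adjusted *p* = 0.0484), all named here after their values were seen. All 455 genes kept their direction in each. Since several of these lists themselves moved with the contrast, tissue content and the response to FLX cannot be told apart in the coding calls. Leaving out 1 library also moved the coding count, from 255 to between 112 (without *Brd1*+/- vehicle replicate 2) and 462 (without *Brd1*+/- FLX replicate 4), and weights for library quality raised all calls to 1671.

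Immediate-early transcription factors held 5 of the 37 coding genes with a higher effect. Of 26 tested, these 5 passed (*Egr4*, *Npas4*, *Srf*, *Egr2* and *Nr4a1*; 19.2%, against 0.232% of all coding genes tested), none had a lower effect, 13 had an unadjusted *p* below 0.05, and the median was 1.01 against −0.09 over all coding genes. None of the 5 was called once the hypothalamic transcription factors were a covariate, where the interaction was 1.48 for *Egr4* (limma adjusted *p* = 0.385), 1.5 for *Egr2* (0.688), 1.09 for *Npas4* (0.521), 0.73 for *Nr4a1* (0.765) and 0.31 for *Srf* (0.785). With the striatal, oligodendrocyte and choroid plexus levels as covariates none was called either, and the smallest limma adjusted *p* was 0.178 (*Egr4*).

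*Egr4*, a zinc finger factor (chr6:85511121-85513589, minus strand), ranged from 29.1 to 53.4 TPM in WT vehicle (median 42.7), from 3.95 to 30.7 in WT FLX (median 13.6), from 11.3 to 44.0 in *Brd1*+/- vehicle (median 22.1) and from 19.7 to 54.9 in *Brd1*+/- FLX libraries (median 31.7). WT FLX libraries were the lowest, and only 1 of them exceeded the lowest WT vehicle library. FLX changed *Egr4* by −1.75 ± 0.35 in WT (limma adjusted *p* = 0.0231), where it fell, and by 0.53 ± 0.35 in *Brd1*+/- mice (limma adjusted *p* = 0.815). The interaction was 2.28 ± 0.49 (SE, limma adjusted *p* = 0.0123) and stayed called in each of 32 fits that left out 1 library.

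*Egr2*, a relative of *Egr4* that also directs myelination in Schwann cells, had lower levels. It ranged from 3.15 to 16.2 TPM in WT vehicle (median 6.72), from 0.705 to 6.75 in WT FLX (median 2.50), from 1.19 to 8.45 in *Brd1*+/- vehicle (median 2.99) and from 2.58 to 12.4 in *Brd1*+/- FLX libraries (median 6.23). All groups overlapped. The interaction was 2.49 ± 0.66 (SE, limma adjusted *p* = 0.0426), but it was called in only 14 of the 32 fits that left out 1 library (limma adjusted *p* = 0.0825 without replicate 2 of *Brd1*+/- vehicle, the highest).

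The neuronal factor *Npas4*, which responds to calcium entry, averaged 15.6 ± 6.7 TPM in WT vehicle, 7.68 ± 1.28 in WT FLX, 8.27 ± 3.94 in *Brd1*+/- vehicle and 13.1 ± 5.3 in *Brd1*+/- FLX libraries (SD, n = 8 each). No WT FLX library reached the lowest WT vehicle library (9.88 TPM). The interaction was 1.62 ± 0.39 (limma adjusted *p* = 0.0263). The nuclear receptor *Nr4a1* had 68.7 ± 22.7, 35.4 ± 16.5, 39.2 ± 17.0 and 53.5 ± 19.4 TPM in the same order, with an interaction of 1.5 ± 0.40 (limma adjusted *p* = 0.0459). *Srf*, the factor that binds CArG boxes, had 37.5 ± 5.4, 25.8 ± 6.1, 30.6 ± 6.5 and 35.4 ± 6.2 TPM, with an interaction of 0.78 ± 0.20 (limma adjusted *p* = 0.0401). In each of these the means were highest in WT vehicle and *Brd1*+/- FLX. The calls of *Npas4*, *Srf* and *Nr4a1* held in 30, 13 and 11 of the 32 fits that left out 1 library, and without *Brd1*+/- vehicle replicate 2 none of them was called (limma adjusted *p* = 0.0549, 0.0805 and 0.0882).

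*Junb*, another member, was listed at 0 in all 8 WT FLX libraries and in 23 of the 48, between values of up to 107 TPM. Such zeros occurred in 53 of the 11325 genes with a median of at least 10 TPM and may be failed estimates, so its interaction of 7.52 ± 2.46 (limma adjusted *p* = 0.108) is not read further. *Fos* had an interaction of 0.52 ± 0.69 (limma adjusted *p* = 0.760), and *Arc*, an effector, of 1.74 ± 0.51 (limma adjusted *p* = 0.0699). Both were singled out after their values were seen.

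The bases before the start of 3 of these genes are shown because the genes moved together. Windows of 250 bases before each RefSeq start (GRCm38.p6) were searched for TGACGTCA, the full cAMP response element (CRE), for its half-site (TGACG or CGTCA) and for the CArG box, on both strands, where each full CRE also holds both half-site spellings. Over all 32851 promoter windows the full CRE was present in 1.55%, a half-site in 17.8% and a CArG box in 1.47%. *Egr4* had 2 half-sites and no CArG box, *Nr4a1* had 4 half-sites and no CArG box, and *Egr2* had 2 half-sites and 1 CArG box in the window shown, which was chosen for its matches from 5 windows of that gene. Another of these had 1 CArG box and no half-site, and a further one, over an exon, no match. Of the 3 *Meig1* windows, 1 held a half-site. No full CRE was found in any of them. *Inhba*, with no match of any kind, and *Npas4* and *Srf*, whose windows overlap exons, are not shown. A match describes letters only. Capitals mark half-sites and CArG boxes.
Egr4, chr6:85513590-85513839, minus strand: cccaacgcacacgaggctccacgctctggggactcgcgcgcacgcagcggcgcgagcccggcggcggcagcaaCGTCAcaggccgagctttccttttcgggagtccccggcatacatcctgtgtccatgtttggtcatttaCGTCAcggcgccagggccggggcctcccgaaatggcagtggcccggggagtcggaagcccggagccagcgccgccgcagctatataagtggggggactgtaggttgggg
Nr4a1, chr15:101266596-101266845, plus strand: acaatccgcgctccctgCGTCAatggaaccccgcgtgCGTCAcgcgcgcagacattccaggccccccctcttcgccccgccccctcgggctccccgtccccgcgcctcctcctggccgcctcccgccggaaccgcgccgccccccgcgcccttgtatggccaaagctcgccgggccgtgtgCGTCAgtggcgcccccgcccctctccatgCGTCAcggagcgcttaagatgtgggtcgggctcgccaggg
Egr2, chr10:67537619-67537868, plus strand: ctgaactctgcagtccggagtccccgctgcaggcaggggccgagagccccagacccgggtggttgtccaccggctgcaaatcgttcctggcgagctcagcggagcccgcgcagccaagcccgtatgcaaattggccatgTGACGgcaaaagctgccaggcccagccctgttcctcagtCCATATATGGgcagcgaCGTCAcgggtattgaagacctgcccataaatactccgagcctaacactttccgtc

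Activity-induced effectors followed in smaller number. Of 49 tested, 3 had a higher FLX effect in *Brd1*+/- mice (*Inhba*, *Plk2* and *Gadd45b*; 6.12%, against 0.232% of all coding genes tested), none a lower one, 21 had an unadjusted *p* below 0.05 and the median was 0.52 against −0.09 over all coding genes. *Rasl11b* was next at 1.44 ± 0.39 (limma adjusted *p* = 0.0510).

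*Inhba* (chr13:16011851-16031621, plus strand) encodes the activin beta A subunit and had the largest higher effect after *Meig1* among the coding genes named here. It ranged from 2.87 to 11.0 TPM in WT vehicle (median 5.05), from 1.16 to 5.20 in WT FLX (median 2.80), from 0.794 to 10.3 in *Brd1*+/- vehicle (median 2.60) and from 2.97 to 13.7 in *Brd1*+/- FLX libraries (median 10.1). The groups overlapped, and the median was highest in *Brd1*+/- FLX. FLX gave −1.19 ± 0.41 in WT (limma adjusted *p* = 0.149) and 1.41 ± 0.41 in *Brd1*+/- mice (limma adjusted *p* = 0.114), so neither simple effect passed on its own. The interaction was 2.60 ± 0.58 (SE, limma adjusted *p* = 0.0163), called in all 32 fits that left out 1 library. With the hypothalamic transcription factors as a covariate it was 1.33 (limma adjusted *p* = 0.503), and with the striatal, oligodendrocyte and choroid plexus levels 1.64 (limma adjusted *p* = 0.105), neither of them called. With FLX, *Brd1*+/- mice had more *Inhba* than WT mice by 1.65 ± 0.41 (limma adjusted *p* = 0.0417). In IMN libraries *Inhba* averaged 3.78 ± 2.33 TPM in WT and 5.24 ± 3.13 TPM in *Brd1*+/- mice (SD, n = 8 each).

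*Plk2*, a kinase that weakens overactive synapses, had 151 ± 44 TPM in WT vehicle, 67.7 ± 29.4 in WT FLX, 110 ± 48 in *Brd1*+/- vehicle and 142.4 ± 48.8 in *Brd1*+/- FLX libraries (SD, n = 8 each; interaction 1.66 ± 0.43, limma adjusted *p* = 0.0396). *Gadd45b*, a stress and activity-induced gene, had 25.2 ± 7.1, 11.8 ± 4.1, 20.2 ± 6.8 and 23.5 ± 7.9 TPM in that order (interaction 1.3 ± 0.35, limma adjusted *p* = 0.0460). The calls of *Plk2* and *Gadd45b* held in 15 and 11 of the 32 fits that left out 1 library and were lost without *Brd1*+/- vehicle replicate 2 (limma adjusted *p* = 0.0748 and 0.0887). Of 16 alternative settings with no library left out, *Plk2* was called in 9 and *Gadd45b* in 4.

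Around *Inhba*, the activin and TGF-beta pathway showed no common direction. Of 30 members tested, *Inhba* was higher and *Zfyve9*, which anchors receptor-activated Smads at endosomes, was lower (interaction −0.51 ± 0.12, limma adjusted *p* = 0.0280; 0.0584 without *Brd1*+/- vehicle replicate 2), and the median was 0.05. *Zfyve9* had 30.3 ± 3.7 TPM in WT vehicle, 38.2 ± 4.1 in WT FLX, 31.98 ± 4.32 in *Brd1*+/- vehicle and 28.2 ± 2.7 in *Brd1*+/- FLX libraries (SD, n = 8 each). The 2 calls made up 6.67% of the list, against 1.6% of all coding genes tested in either direction. The signal carrier *Smad3* (1.46 ± 0.45, limma adjusted *p* = 0.0902) and the co-receptor *Tdgf1* (−1.84 ± 0.59, limma adjusted *p* = 0.101) did not pass.

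*Meig1*, known from spermatid development, had the largest higher effect of any coding gene that was called. It read 21.8, 4.13, 3.14, 1.97, 4.296, 1.40, 4.38 and 8.81 TPM in WT vehicle and 7.70, 1.93, 4.23, 5.09, 5.39, 6.78, 8.50 and 21.4 TPM in *Brd1*+/- FLX libraries. In WT FLX it was listed at 0 in 4 libraries and read 1.58, 0.427, 3.30 and 2.29 TPM in the others. In *Brd1*+/- vehicle libraries it lay between 0.989 and 12.7 TPM. The interaction was 4.49 ± 1.02 (SE, limma adjusted *p* = 0.0177), and 2.58 with a pseudocount of 1. The call held in all 32 fits that left out 1 library. *Meig1* was also listed at 0 in 3 of 8 WT IMN and 1 of 8 *Brd1*+/- IMN libraries, and reached 19.0 TPM in another *Brd1*+/- IMN library.

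Among the 32 libraries of the contrast, the highest *Meig1* values were in ones rich in choroid plexus (WT vehicle replicate 1, *Brd1*+/- FLX replicate 8 and *Brd1*+/- vehicle replicate 3), although WT FLX replicate 2, also rich in that tissue, was listed at 0. With the striatal, oligodendrocyte and choroid plexus levels as covariates the interaction was 4.32 and no longer called (limma adjusted *p* = 0.0776). Of 77 motile cilia genes tested only *Meig1* was called (1.3%, against 1.6% of all coding genes tested in either direction). The median was 0.91 against −0.09 over all coding genes. The 7 genes at an unadjusted *p* below 0.05 were a smaller share than the 3002 of 15955 coding genes tested. Next in *p* were *Ccdc151* (0.93 ± 0.34), *Tppp3* (−1.28 ± 0.47) and *Drc1* (0.85 ± 0.32).

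The remaining coding genes named by size of a higher effect were *Stum* and *Icam5*, an adhesion molecule of forebrain dendrites. *Stum* had 151 ± 83 TPM in WT vehicle, 50.5 ± 29.4 in WT FLX, 97.3 ± 40.6 in *Brd1*+/- vehicle and 137.6 ± 70.3 in *Brd1*+/- FLX libraries, and *Icam5* had 183 ± 55, 83.7 ± 60.1, 138.3 ± 54.4 and 191 ± 61 TPM (SD, n = 8 each). Their interactions were 2.11 ± 0.56 (limma adjusted *p* = 0.0477) and 2.03 ± 0.55 (limma adjusted *p* = 0.0493), and each was called in 12 of 32 fits that left out 1 library (limma adjusted *p* = 0.0896 and 0.0944 without *Brd1*+/- vehicle replicate 2). Of 16 alternative settings with no library left out, *Stum* was called in 4 and *Icam5* in 3.

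**Figure D4:**
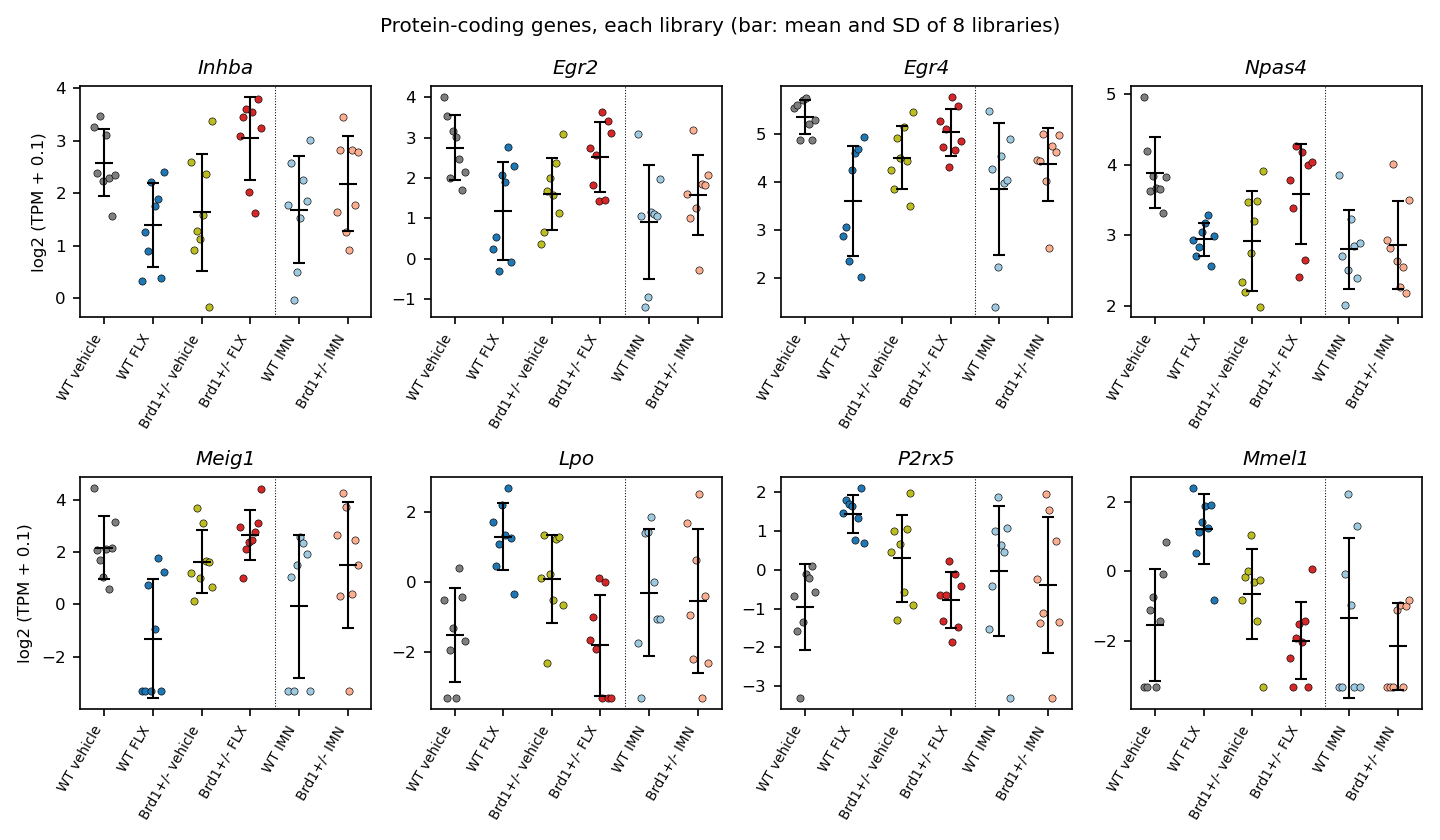
Level of 8 coding genes in every library as log2(TPM + 0.1), by group, with the IMN libraries, which the contrast does not use, to the right of the dotted line; bars are the mean and SD of 8 libraries. *Inhba*, *Egr2*, *Egr4* and *Npas4* are low in WT FLX and *Lpo*, *P2rx5* and *Mmel1* high, and points on the lower edge are libraries listed at 0. *Inhba* and *Npas4* are similarly low in *Brd1*+/- vehicle (−0.95 and −0.97 from WT vehicle, against −1.19 and −0.95 for WT FLX).

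Coding genes with a lower FLX effect in *Brd1*+/- mice were mostly high in WT FLX libraries. The lactoperoxidase gene *Lpo* had the largest of those that were called. It read 3.16, 1.26, 2.00, 4.47, 2.44, 6.30, 2.29 and 0.691 TPM in WT FLX, lay between 0 and 1.22 TPM in WT vehicle and between 0 and 0.987 TPM in *Brd1*+/- FLX libraries, and between 0.101 and 2.44 TPM in *Brd1*+/- vehicle libraries. Only 1 WT FLX library fell within the WT vehicle range. Its interaction was −4.70 ± 0.87 (SE, limma adjusted *p* = 0.00336), and −3.31 with the hypothalamic transcription factors as a covariate (limma adjusted *p* = 0.127).

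The ATP-gated channel gene *P2rx5* showed a clearer separation. It lay between 1.52 and 4.23 TPM in WT FLX libraries, above all WT vehicle (0 to 0.978) and all *Brd1*+/- FLX libraries (0.176 to 1.08), whereas *Brd1*+/- vehicle libraries spanned 0.309 to 3.87. FLX gave 2.41 ± 0.45 in WT (limma adjusted *p* = 0.0214) and −1.08 ± 0.45 in *Brd1*+/- mice (limma adjusted *p* = 0.481), and the interaction was −3.49 ± 0.63 (limma adjusted *p* = 0.00286), or −2.63 with that covariate (limma adjusted *p* = 0.0992).

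*Agt*, the angiotensinogen gene that astrocytes express, was the abundant member of this set. It averaged 56.5 ± 54.9 TPM in WT vehicle, 182 ± 59 in WT FLX, 125.6 ± 84.6 in *Brd1*+/- vehicle and 70.2 ± 66.6 in *Brd1*+/- FLX libraries (SD, n = 8 each), with an interaction of −3.41 ± 0.84 (limma adjusted *p* = 0.0285). The spread within WT vehicle was as large as its mean. *Rab37*, a GTPase of vesicle release, averaged 2.46 ± 2.88 TPM in WT vehicle, 13.2 ± 11.7 in WT FLX, 10.4 ± 7.8 in *Brd1*+/- vehicle and 5.67 ± 7.64 in *Brd1*+/- FLX libraries (SD, n = 8 each; interaction −4.46 ± 1.12, limma adjusted *p* = 0.0336). Its farthest group was WT vehicle, not WT FLX. The peptidase gene *Mmel1* (0.466 to 5.18 TPM in WT FLX; interaction −4.11 ± 0.88, limma adjusted *p* = 0.0106) and the cation channel gene *Pkd2l1* (0.131 to 2.95 TPM in WT FLX; interaction −3.98 ± 0.96, limma adjusted *p* = 0.0261) were both listed at 0 in 3 WT vehicle libraries. Their means were 0.731 and 1.05 TPM in *Brd1*+/- vehicle and 0.232 and 0.484 TPM in *Brd1*+/- FLX libraries. Calls held in 20 of the 32 fits that left out 1 library for *Rab37*, 26 for *Agt* and 31 for *Pkd2l1*, with the highest limma adjusted *p* of 0.0622 (without *Brd1*+/- FLX replicate 5), 0.0585 (without *Brd1*+/- vehicle replicate 2) and 0.0501 (without *Brd1*+/- vehicle replicate 7).

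The astrocyte and glycine lists each held 1 call with a lower effect (8.33% and 14.3% of their tested genes, against 1.37% of all coding genes). *Fgfr3*, a growth factor receptor of astrocytes, was the single call among 12 astrocyte genes (interaction −1.08 ± 0.28, limma adjusted *p* = 0.0374). It had 54.8 ± 21.6 TPM in WT vehicle, 85.0 ± 10.9 in WT FLX, 67.6 ± 15.4 in *Brd1*+/- vehicle and 53.5 ± 17.2 in *Brd1*+/- FLX libraries (SD, n = 8 each). The list had a median of −0.68 and 8 genes at an unadjusted *p* below 0.05, with *Aldh1l1*, *Gjb6* and *Aldoc* next. *Slc6a9*, the glial glycine transporter, was the single call among 7 genes of glycine reception and transport (interaction −1.86 ± 0.49, limma adjusted *p* = 0.0426), followed by *Glra1* (−5.56 ± 1.53, limma adjusted *p* = 0.0539), *Glrb* and *Glra3*. *Slc6a9* had 36.5 ± 17.9 TPM in WT vehicle, 79.0 ± 23.9 in WT FLX, 65.8 ± 37.9 in *Brd1*+/- vehicle and 42.5 ± 28.5 in *Brd1*+/- FLX libraries (SD, n = 8 each). Without *Brd1*+/- vehicle replicate 2 neither *Fgfr3* nor *Slc6a9* was called (limma adjusted *p* = 0.0748 and 0.0822). Of 16 alternative settings with no library left out, *Fgfr3* was called in 11 and *Slc6a9* in 6.

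No serotonin gene was called. Of 20 receptors, transporters and enzymes tested, 3 had an unadjusted *p* below 0.05, and the smallest belonged to the receptor gene *Htr7* (−1.80 ± 0.64, limma adjusted *p* = 0.139), the degrading enzyme *Maoa* (−0.61 ± 0.25), *Ddc* (−1.93 ± 0.88) and *Slc18a2* (−1.15 ± 0.60). *Slc6a4*, the transporter that FLX blocks, reached no more than 0.320 TPM in any library of the contrast and did not pass the filter.

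Among noncoding genes, the annotated copies of 7SL had the largest differences. They are near-identical and share reads, so their values are uncertain gene by gene and are not separate observations. *Rn7s2* ranged from 64.1 to 123.6 TPM in *Brd1*+/- vehicle libraries (median 92.2), from 1.36 to 4.79 in WT vehicle (median 2.74), from 1.19 to 9.02 in WT FLX (median 3.66) and from 0.955 to 8.33 in *Brd1*+/- FLX libraries (median 2.69). All 8 *Brd1*+/- vehicle libraries lay above every library of the other groups, IMN libraries included, which reached 11.1 TPM. FLX gave 0.45 ± 0.37 in WT (limma adjusted *p* = 0.593) and −5.08 ± 0.37 in *Brd1*+/- mice (limma adjusted *p* = 8.31e-11). The interaction was −5.53 ± 0.52 (SE, limma adjusted *p* = 6.41e-08), and that of *Rn7s1* was −5.29 ± 0.49 (limma adjusted *p* = 5.1e-08). With the hypothalamic transcription factors as a covariate *Rn7s2* stayed called at −5.05 (limma adjusted *p* = 9.18e-06).

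A 0 was listed for *Rn7s6* in 8 of 8 WT vehicle, 7 of 8 WT FLX and 7 of 8 *Brd1*+/- FLX libraries. In *Brd1*+/- vehicle libraries it read 32.7, 40.2, 31.5, 53.1, 42.8, 0, 50.6 and 60.8 TPM. Its fitted interaction of −7.36 ± 1.29 (limma adjusted *p* = 0.00247) depends on the pseudocount and is no bound. Of the 5 members of the 7SL and 7SK list that were tested, these 3 were lower (60%, against 1.77% of all noncoding genes tested) and none was higher. The 3 share reads, so the share is not one of separate genes. *Rn7sk*, the 7SK RNA that restrains transcription elongation, had −1.002 ± 0.413 (limma adjusted *p* = 0.208).

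*Gm47295*, annotated as a miRNA, overlaps *Rn7s1* in the annotation, so its interaction of −5.38 ± 0.83 (limma adjusted *p* = 0.000545) is no separate observation. *Gm27379*, also annotated as a miRNA, read 1.42 to 7.61 TPM in *Brd1*+/- vehicle libraries and was listed at 0 in 6 of 8 WT vehicle libraries (interaction −5.14 ± 1.02, limma adjusted *p* = 0.00608).

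*Malat1* was also high in *Brd1*+/- vehicle libraries. This abundant RNA, which stays in nuclear speckles, ranged from 637 to 1031 TPM there (median 765), from 190 to 372 in WT vehicle (median 255), from 159 to 344 in WT FLX (median 198) and from 180 to 349 in *Brd1*+/- FLX libraries (median 293), so that *Brd1*+/- vehicle did not overlap with the other groups of the contrast (WT IMN libraries reached 513 TPM). Its interaction was −1.26 ± 0.23 (SE, limma adjusted *p* = 0.0034). *Peg13*, an imprinted noncoding RNA, was instead highest with FLX in WT mice (174 ± 26 TPM against 131 ± 18 in WT vehicle, 141.97 ± 22.1 in *Brd1*+/- vehicle and 113 ± 16 in *Brd1*+/- FLX libraries, SD, n = 8 each; interaction −0.73 ± 0.15, limma adjusted *p* = 0.00901). Of 16 long nuclear noncoding RNAs tested, these 2 were lower (12.5%, against 1.77% of all noncoding genes tested) and none was higher (median −0.17). *Neat1* and *Xist* came next in *p*.

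Many called noncoding genes lay inside introns. Of the 189 with a lower effect, 90 (47.6%) were within an intron of a coding gene on the same strand, against 18.8% of the noncoding genes tested, and 137 (72.5%) had a single exon, against 71.5%. They were called in 90 of 2004 intronic genes tested (4.49%). By type, 84 were TEC, the label for transcripts to be experimentally verified, of 1497 tested, 24 were antisense (of 1229), 17 processed pseudogenes (of 4064), 16 lincRNAs (of 1124) and 15 sense intronic RNAs (of 164), against 1.77% of all noncoding genes tested. No snoRNA was called (0 in the limma fit). The 27 snoRNAs at an unadjusted limma *p* below 0.05 were a smaller share than the 1460 of 10650 noncoding genes tested.

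The 90 genes lay in 69 hosts, of which 1 was called, 33 had a positive and 36 a negative interaction, and the median was −0.07. Both the called share and the median were close to those of all coding genes tested (255 of 15955 called, median −0.09). The median *Brd1*+/- minus WT difference with vehicle in the hosts was −0.01. *Frmd4a* held 5 of the 90. *Gm31224*, which runs antisense to *Kifc3*, was the lowest of the antisense genes. It read 0, 1.36, 2.76, 3.12, 0.694, 2.32, 1.66 and 0.902 TPM in *Brd1*+/- vehicle libraries, was listed at 0 in all 8 WT vehicle and 7 of 8 *Brd1*+/- FLX libraries and reached 1.78 TPM in WT FLX libraries (interaction −4.99 ± 0.94, limma adjusted *p* = 0.0039). Whether reads were counted by strand was not given in the sources used here, so antisense and intronic reads may come from the other gene.

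By median, more genes were listed above 0 in *Brd1*+/- vehicle libraries (25874, range 25387 to 27252) than in the other groups, though all ranges overlapped. The medians were 25160.5 in WT vehicle (24335 to 25611), 24684.5 in WT FLX (23464 to 25432) and 25287.5 in *Brd1*+/- FLX libraries (24455 to 25852). The part of library quality, nuclear RNA content or genomic DNA in the noncoding result was not tested. Vehicle and drug mice also carried sample codes from separate ranges. Among FLX mice the highest codes all belonged to WT libraries, those with the highest *Avp* values among them. The labels do not say what the codes stand for, so anything that follows them cannot be told apart from treatment or from the contrast.

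**Figure D5:**
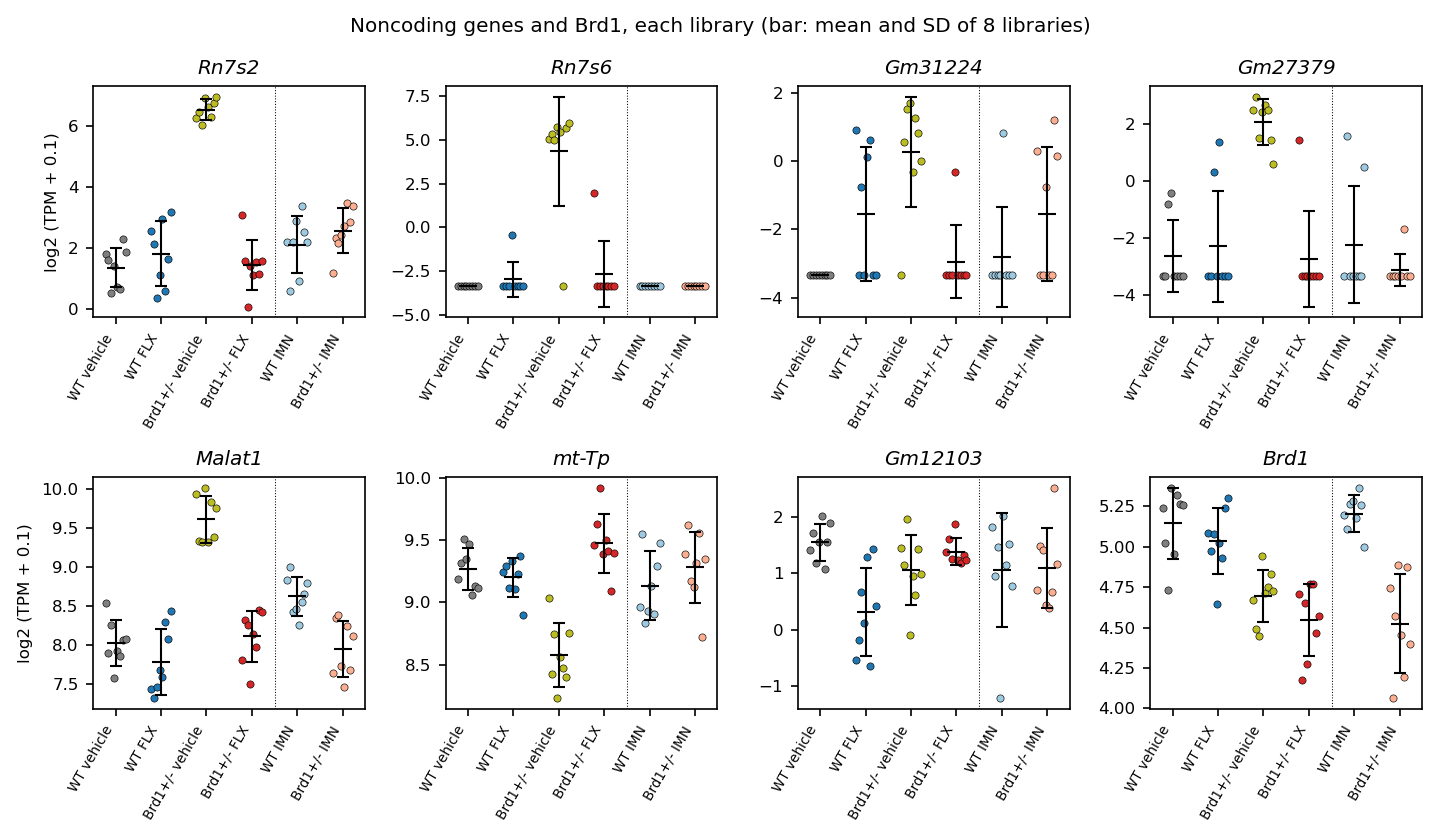
Level of 7 noncoding genes and *Brd1* in every library as log2(TPM + 0.1), by group, with the IMN libraries to the right of the dotted line; bars are the mean and SD of 8 libraries. *Rn7s2* and *Malat1* in *Brd1*+/- vehicle lie above every library of the 3 other groups of the contrast, and *mt-Tp* lies below most of them.

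Noncoding genes with a higher effect were few, and 4 of the 9 had a mean of at least 1 TPM in a group. *mt-Tp*, the mitochondrial proline tRNA (chromosome M, 15356 to 15422, minus strand), ranged from 532 to 730 TPM in WT vehicle (median 609), from 477 to 663 in WT FLX (median 603), from 299.7 to 524 in *Brd1*+/- vehicle (median 366) and from 544 to 968 in *Brd1*+/- FLX libraries (median 691). *Brd1*+/- vehicle lay below the WT vehicle and *Brd1*+/- FLX libraries, and its highest library exceeded the lowest of WT FLX. FLX gave −0.07 ± 0.11 in WT (limma adjusted *p* = 0.817) and 0.90 ± 0.11 in *Brd1*+/- mice (limma adjusted *p* = 1.45e-06), and the interaction was 0.96 ± 0.15 (limma adjusted *p* = 0.000545).

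It was the single call among 22 mitochondrial tRNAs (4.55%, against 1.86% of all noncoding genes tested in either direction). Their median was −0.27, and 9 had an unadjusted *p* below 0.05. *mt-Tl2* (−1.38 ± 0.38, limma adjusted *p* = 0.0541), *mt-Ts2* and *mt-Th* came next. Of 15 mitochondrial mRNAs and rRNAs none was called and none had an unadjusted limma *p* below 0.05. The other 3 were processed pseudogenes, which can take reads from their parent genes: *Gm12103* (interaction 1.56 ± 0.38, limma adjusted *p* = 0.0289), *Gm6788* (0.75 ± 0.19, limma adjusted *p* = 0.0372) and *Eif4a-ps4* (0.34 ± 0.09, limma adjusted *p* = 0.0336). Their calls held in 28, 16 and 20 of the 32 fits that left out 1 library, and that of *mt-Tp* in all 32. The highest limma adjusted *p* was 0.0538 for *Gm12103* (without *Brd1*+/- vehicle replicate 6). It was 0.0748 for *Gm6788* and 0.0662 for *Eif4a-ps4* (without *Brd1*+/- vehicle replicate 2). The 5 below 1 TPM were *6530401F13Rik* (3.39), *Gm40603* (2.74), *Gm19253* (2.74), *Gm14029* (2.20) and *Gm10648* (1.74), named here after their values were seen.

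The remaining 8 lists held no call. These were microglia (0 of 13, median −0.25), endothelial cells (0 of 12, median −0.42), meningeal fibroblasts (0 of 16, median −0.53), blood cells (0 of 6, median −0.84), thalamic and vesicular glutamate transporter 2 neurons (0 of 10, median −1.01), the unfolded protein response (0 of 25, median −0.06), cytosolic heat shock (0 of 21, median −0.05) and the *Brd1* histone acetyltransferase complex (0 of 12, median −0.08), with 0, 4, 1, 1, 3, 2, 4 and 3 genes at an unadjusted limma *p* below 0.05.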

How the data were processed

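RNA was sequenced from punches of the right AMG of 48 mice, and the 32 libraries of the vehicle and FLX groups were compared. The deposited values are TPM per gene, which the authors made after alignment to GRCm38 with HISAT2 (v2.1.0) and assembly with StringTie (v1.3.4), per the labels' processing notes. Totals were 999524 to 999772 TPM a library, and since TPM keeps no read counts, depth is unknown here and no counting interval is given. The study tested read counts, which were not used here, so a linear model on log2(TPM + 0.1) was fitted instead. Each library is a separate mouse.

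Genes with at least 0.1 TPM in at least 8 of the 32 libraries were kept. One model with a mean for each group was fitted with limma (v3.58.1, R v4.3.3) with an intensity trend, and *p*-values were adjusted by the Benjamini-Hochberg method over all genes tested. Gene types and coordinates came from GENCODE M21, which held 52489 of the 52636 gene identifiers. Named genes are *Brd1*, *Inhba*, *Egr2* and *Meig1*, up to 6 called genes per class and direction with the largest change and a mean of at least 1 TPM in a group, and the called genes and the 4 smallest *p*-values of described lists among the 25 gene lists. The members and lists were chosen with earlier results of these data known. Alternatives were other pseudocounts, filters, scalings, weights, covariates and libraries left out. The model was tested on simulated data with independent normal noise for each gene. Such data hold no variation that genes share, as through tissue content, so the test does not bear on it. Some sequences are not reported here.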

Additional observations from a re-analysis of the deposited data

Results flagged for a closer look

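The FLX effect differed between the genotypes by a test of the difference itself (limma, adjusted *p* below the threshold) in 455 genes. Among the named coding genes the interaction was 4.49 for *Meig1*, 2.60 for *Inhba*, 2.49 for *Egr2*, 2.28 for *Egr4*, 2.11 for *Stum* and 2.03 for *Icam5*. It was −4.70 for *Lpo*, −4.46 for *Rab37*, −4.11 for *Mmel1*, −3.98 for *Pkd2l1*, −3.49 for *P2rx5* and −3.41 for *Agt*. Among the named noncoding genes it was 1.56 for *Gm12103*, 0.96 for *mt-Tp*, 0.75 for *Gm6788* and 0.34 for *Eif4a-ps4*, and −7.36 for *Rn7s6*, −5.53 for *Rn7s2*, −5.38 for *Gm47295*, −5.29 for *Rn7s1*, −5.14 for *Gm27379* and −4.99 for *Gm31224*.

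A single library lay far from the other 7 of its group, by Dixon's criterion, in 9 of the 92 groups that 23 genes give. Groups listed at 0 throughout, such as *Rn7s6* and *Gm31224* in WT vehicle, have no spread and could not be flagged. Chance gives about 1 in 20 for independent values that are normally distributed, which does not hold here, since some of these genes share reads and in 4 of the 9 the other libraries were all listed at 0. Replicate 1 of *Brd1*+/- FLX was the highest of its group in 4 of them, with 3.85 TPM for *Rn7s6* and 2.60 TPM for *Gm27379* where the others were listed at 0, 4.75 TPM for *Gm47295* (next 1.36) and 8.29 TPM for *Rn7s1* (next 3.11). *Rn7s6* was listed at 0 in replicate 6 of *Brd1*+/- vehicle (next 31.5 TPM) and read 0.628 TPM in replicate 4 of WT FLX, where the others were listed at 0. *Gm31224* was listed at 0 in replicate 1 of *Brd1*+/- vehicle (next 0.694 TPM) and read 0.707 TPM in replicate 4 of *Brd1*+/- FLX, where the others were listed at 0. *Pkd2l1* read 0.131 TPM in replicate 8 of WT FLX (next 1.47 TPM).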

How the results depend on the processing

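The 455 calls (1.6% of coding and 1.86% of noncoding genes tested) kept their direction in every alternative in which the gene was fitted, but their number moved. It was 259 with a filter of 1 TPM (0.845% of noncoding genes), 303 with quantile normalization (1.17% of noncoding genes), 1671 with array weights (7.56% of coding and 4.33% of noncoding genes), 189 with the striatal, oligodendrocyte and choroid plexus levels as covariates (0.401% and 1.17%), 64 with the hypothalamic transcription factors (0.0188% and 0.573%) and 74 with the hypothalamic peptides, a covariate chosen after seeing the data (0.0439% and 0.629%). A pseudocount of 0.01 gave calls in 1.23% of noncoding genes, all 48 libraries in 0.765% of coding genes and a term for the sample code in 0.997% of coding genes. Apart from the replicate block and libraries left out, given next, the other settings stayed within 1.5 times. The cause of these moves was not tested.

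Leaving out 1 library gave 247 to 695 calls, in 0.704% to 2.9% of coding and 1.25% to 2.31% of noncoding genes. The total moved by over 1.5 times without *Brd1*+/- vehicle replicates 2, 4, 6 and 7 (247, 290, 296 and 289), WT vehicle replicates 2 and 7 (292 and 684), *Brd1*+/- FLX replicates 4, 5 and 7 (695, 302 and 299) and WT FLX replicate 7 (303). The coding share moved as far also without *Brd1*+/- FLX replicate 6 (2.75%) and WT FLX replicates 1 and 3 (1.004% and 0.879%).

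With the replicate number as a block, 330 genes were called, and the share of coding genes moved to 1.02%. The numbers do not pair the libraries, since the 48 same-numbered pairs had a median correlation of −0.043 (−0.305 to 0.132) and 1 of 32 libraries correlated best with its own number.

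Values that changed sign belonged to genes that were not called. *Brd1* was 0.0551 with median-ratio scaling, 0.0349 with quantile normalization, 0.049 with array weights, 0.128 with hypothalamic transcription factors, 0.113 with hypothalamic peptides and between −0.0936 and 0.0212 with 1 library left out. With the hypothalamic peptides *Maoa* was 0.0527, *Glra3* 0.89 and *Pmch* 0.10. With the transcription factors *Ddc* was 0.23 and *Glra3* 0.22. With the 3 other lists *Zfp536* was 0.16 and *Neat1* 0.12.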
